A study of Mus musculus with 9 samples.

Results

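The MYC network is a family of basic helix-loop-helix leucine zipper proteins that meet at the same DNA element, the E-box. This section follows 10 of its genes, Mycn, Myc, Mycl, Max, Mxd1, Mxd3, Mxd4, Mnt, Mlx and Mga, across 7 chromatin peak lists from mouse thymic lymphoma. The genes were taken by name, with earlier results of these data known, and all 10 were found among 17492 protein-coding genes (of 21883) whose start could be placed on a strand. The tumours were T cell lymphomas driven by MYCN in the thymus of C57BL/6J mice. ChIPmentation, in which a transposase inserts sequencing adapters into immunoprecipitated chromatin, was run with antibodies to EZH2, SUZ12, H3K27me3, N-MYC, p300, H3K27ac and H3K4me3, with 1 library each. The series held 9 samples, and its 2 input libraries had no antibody and were not analysed here. All 7 groups share the tumour type and strain. The labels do not give the animals' age, the promoter or species of the introduced MYCN, or the animal behind each library.

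As background, MYC, N-MYC and L-MYC activate transcription as heterodimers with MAX, the obligate partner of the network. MXD1, MXD3, MXD4 and MNT also bind MAX and recruit SIN3 and histone deacetylases, so they oppose MYC at shared sites. MLX is a MAX-like hub that pairs with MXD proteins, MNT and the glucose-responsive MondoA and ChREBP. MGA is a very large MAX partner that anchors a variant Polycomb repressive complex 1. EZH2 and SUZ12 are subunits of Polycomb repressive complex 2, which deposits the repressive mark H3K27me3. H3K4me3 and H3K27ac mark active promoters, H3K27ac and the acetyltransferase p300 also active enhancers. In developing thymocytes Myc is induced by Notch and pre-T-cell receptor signals, while Mycn is best known from neural and other embryonic progenitors.

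To show what lies under these peaks, promoter sequences from RefSeq (GRCm38.p6) were read for the 9 genes in the promoter table. Myc had no entry. Each sequence runs from 250 bases before a transcript start to 10 bases after it, 5′ to 3′ on the gene's strand, and capitals mark the E-box CACGTG or its variant CACGCG in either orientation. Max, Mxd4, Mnt and Mlx are shown because they hold CACGTG, and Mycn and Mycl because they are the promoters under Polycomb peaks. The windows are chr12:76962239-76962498 (minus strand) for Max, chr5:34187701-34187960 (minus strand) for Mxd4, chr11:74830674-74830933 (plus strand) for Mnt, chr11:101087040-101087299 (plus strand) for Mlx, chr12:12941827-12942086 (minus strand) for Mycn and chr4:122995681-122995940 (plus strand) for Mycl.
Max: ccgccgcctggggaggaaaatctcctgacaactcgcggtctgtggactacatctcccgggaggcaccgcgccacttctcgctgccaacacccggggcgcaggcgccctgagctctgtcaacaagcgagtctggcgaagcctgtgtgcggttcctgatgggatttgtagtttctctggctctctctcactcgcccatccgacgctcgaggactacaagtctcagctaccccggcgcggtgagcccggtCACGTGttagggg
Mxd4: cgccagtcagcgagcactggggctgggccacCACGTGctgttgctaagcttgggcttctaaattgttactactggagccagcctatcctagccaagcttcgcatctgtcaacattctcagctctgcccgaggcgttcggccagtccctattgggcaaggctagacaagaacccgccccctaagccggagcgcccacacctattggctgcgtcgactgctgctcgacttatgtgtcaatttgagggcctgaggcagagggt
Mnt: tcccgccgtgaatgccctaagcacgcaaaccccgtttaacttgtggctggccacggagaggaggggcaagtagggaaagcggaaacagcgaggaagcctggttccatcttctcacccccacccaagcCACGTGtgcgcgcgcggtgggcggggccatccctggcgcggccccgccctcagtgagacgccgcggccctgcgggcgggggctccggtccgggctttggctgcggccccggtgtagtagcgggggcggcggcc
Mlx: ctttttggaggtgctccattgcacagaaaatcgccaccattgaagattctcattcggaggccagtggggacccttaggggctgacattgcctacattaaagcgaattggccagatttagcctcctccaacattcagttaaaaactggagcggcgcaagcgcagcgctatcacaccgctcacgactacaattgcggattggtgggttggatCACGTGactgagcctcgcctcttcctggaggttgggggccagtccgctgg
Mycn: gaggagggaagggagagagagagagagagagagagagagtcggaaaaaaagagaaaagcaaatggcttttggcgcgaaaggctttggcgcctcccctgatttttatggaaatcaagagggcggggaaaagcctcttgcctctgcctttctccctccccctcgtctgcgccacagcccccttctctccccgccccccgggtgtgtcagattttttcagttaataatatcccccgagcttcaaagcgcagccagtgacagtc
Mycl: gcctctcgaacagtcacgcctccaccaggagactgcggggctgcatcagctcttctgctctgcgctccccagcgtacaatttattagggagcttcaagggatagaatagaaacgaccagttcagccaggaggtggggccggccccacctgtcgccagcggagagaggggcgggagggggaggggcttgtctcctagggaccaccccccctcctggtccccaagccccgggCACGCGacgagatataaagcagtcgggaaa

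CACGTG, which is its own reverse complement, was in 4 of the 9 promoters when the window was carried to 50 bases after the start, and in 7.84% of 21262 protein-coding promoters of the same length of 300 bases. Its first base lay 3 bases before the start of Max, so that it spans the start, 219 bases before that of Mxd4, 123 before that of Mnt and 40 before that of Mlx. These are transcript starts of the promoter table, whereas peaks are measured below from the 5′ end of the RefSeq gene. The table's start lies inside the gene by 583 bp at Mlx, 343 bp at Mycl and 118 bp at Mnt. The promoters of Max, Mxd4 and Mnt lay under an N-MYC peak, and that of Mlx did not. The N-MYC summit was 92 bases from the CACGTG of Max, 60 from that of Mnt and 178 from that of Mxd4. An N-MYC peak also covered the promoters of Mxd1, Mxd3 and Mga, none of which held CACGTG. For Mga this promoter is that of an inner transcript start, 24725 bp into the gene. No sequence was read at its outer start, where N-MYC was stronger (15.9). Among 6296 promoters under an N-MYC peak 13.8% held it, against 5.33% of 14966 promoters without one. CACGCG was searched on both strands and was found 20 bases before the start of Mycl. As CGCGTG it lay 21 bases before the inner start of Mga. It was in 12.1% of all promoters. Base composition was not adjusted for, and its relation to these shares was not tested. The 300-base promoters of Mxd1 and Mxd3 held 39 and 25 CpG dinucleotides and the median promoter 13. Those of Max, Mxd4, Mnt and Mlx, which hold CACGTG, had 30, 18, 32 and 18.

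Each gene was read within 1 kb of its start, the 5′ end of the RefSeq gene. A gene counted as carrying a list's peak when at least 1 bp of a peak fell in this window, and its value is the fold enrichment over background that the authors' files give for the strongest such peak. With 1 library per antibody there is no replicate error and no test, so these are descriptions of single lists, and a missing peak says only that none was called. The read depth is unknown. On the labelled cell type, 8 of 10 T-cell marker genes had a placed start, and all 8, Cd3e, Lck and Tcf7 among them, carried H3K4me3 and H3K27ac. Over all genes 49.6% carried H3K4me3 and 49.8% H3K27ac. Both marks were at 1 of 3 B-cell markers with a placed start (Cd79a, H3K4me3 fold enrichment 4.74), 0 of 3 myeloid, 2 of 3 erythroid (Klf1 and Epor), 1 of 4 thymic epithelial (Epcam) and 0 of 1 stromal markers. The part of such cells in the values below was not tested.

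Among the 10 genes, the 3 MYC paralogs carried the Polycomb features, and Max, Mxd1, Mxd3, Mxd4, Mnt and Mga carried N-MYC with the active marks. Mxi1, a further MXD family gene outside the 10, did not follow this division, with H3K27me3 at 3.94 and no N-MYC peak. EZH2 was called at the start of all 10 genes, against 43.1% of all genes. SUZ12 was at 3 (12.2% of all genes) and H3K27me3 at 3 (23.8%), in each case Mycn, Myc and Mycl. The H3K27me3 count was thus near the share of all genes. N-MYC was called at 6 (31.6%), p300 at 7 (38.3%), H3K27ac at 8 (49.8%) and H3K4me3 at 9 (49.6%). N-MYC together with EZH2, and with neither SUZ12 nor H3K27me3, was found at 6 genes (24% of all genes): Max, Mxd1, Mxd3, Mxd4, Mnt and Mga. These 6 also held N-MYC, p300, H3K27ac and H3K4me3 together (29.3% of all genes). A window of 5 kb added a weak H3K27me3 peak (4.04) at Mga, 1 of these 6. EZH2, SUZ12 and H3K27me3 together were at 3 (11.2%), and 0 of the 10 were without any peak (29.9%). With every list held to the length of the shortest, EZH2 was lost at Mxd1, Mxd3, Mlx and Mga and stood at 6 genes (32.3% of all genes). N-MYC with EZH2 and no Polycomb feature then stood at 3 (18.8%). When the summit itself had to lie in the window SUZ12 and H3K27me3 were each left at 1 gene, Mycn. Of all genes 9.72% and 15.9% then had them. The SUZ12 count was then near the share of all genes, and the H3K27me3 count was again not clearly above it.

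**Figure D1:**
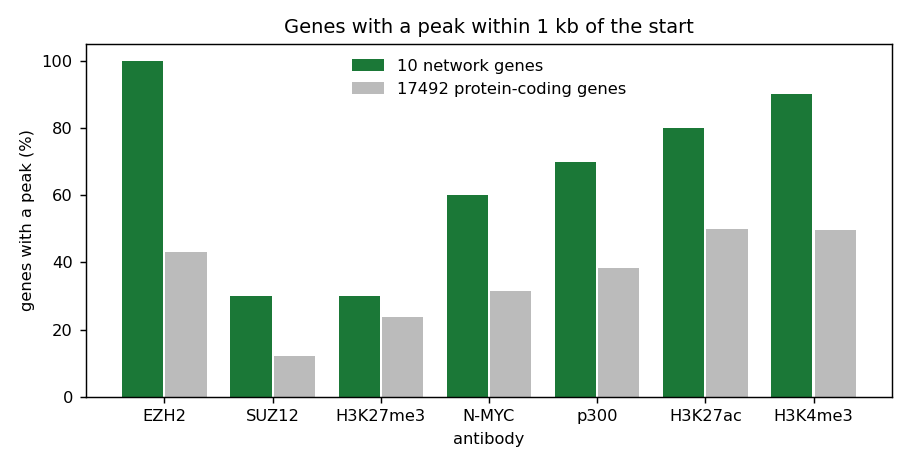
Percentage of genes with a peak within 1 kb of the start (y axis) for each antibody (x axis), in the 10 network genes (green bars) and in 17492 protein-coding genes (grey bars). EZH2 was at 10 of 10 network genes against 43.1% of all genes, while H3K27me3, at 3 of 10, was near the 23.8% of all genes.

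**Figure D2:**
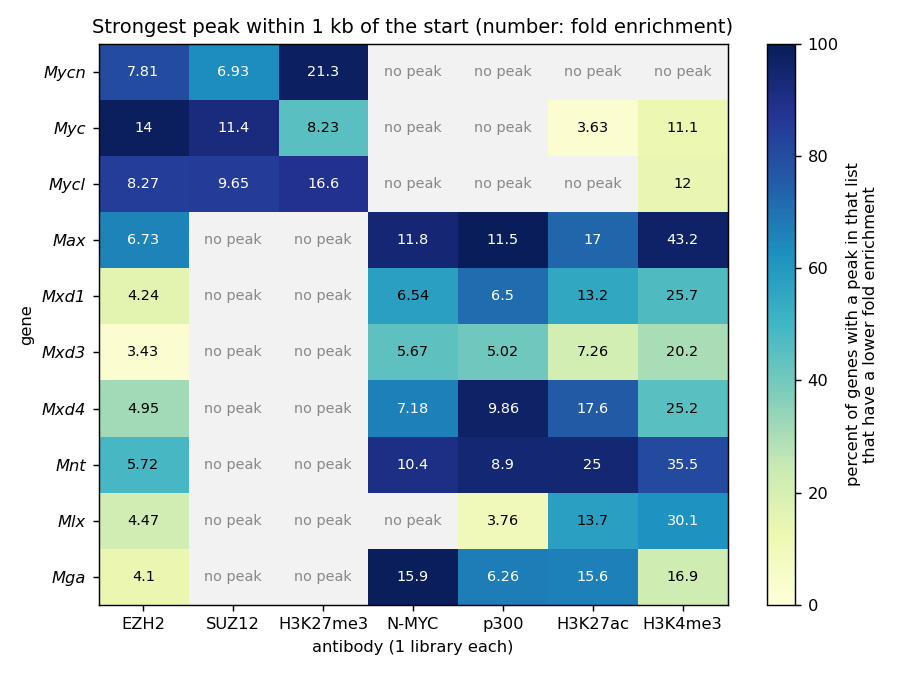
Strongest peak within 1 kb of the start for the 10 genes (rows) and 7 antibodies (columns). Numbers are fold enrichments, colour is the percentage of genes with a peak in that list that have a lower value, and grey cells had no peak; SUZ12 and H3K27me3 fill the top 3 rows and N-MYC and p300 the rows below, except N-MYC at Mlx.

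Mycn is the mouse gene for N-MYC. The tumours were driven by MYCN, and the species of the introduced copy is not given. The mouse Mycn gene lies on chromosome 12 from 12936093 to 12941836 on the minus strand. At its start EZH2 had a fold enrichment of 7.81, SUZ12 6.93 and H3K27me3 21.3, while N-MYC, p300, H3K27ac and H3K4me3 had no peak. The H3K27me3 value ranked 87 among 4168 genes with a peak, above 97.9% of them. The combination of all 3 Polycomb features without H3K4me3 or H3K27ac occurred at 6.89% of all genes. The H3K27me3 peak was 11169 bp wide, from -3351 to 7817 bp relative to the start, and covered the whole gene body. EZH2 covered 77.6% of the body in 3 peaks and SUZ12 78.3% in a single peak. Each of the 2 lists held 2 peaks within 1 kb of the start, at nearly the same positions. The EZH2 summits lay at -524 and 1538 bp and the SUZ12 summits at -807 and 1390 bp. The upstream peak was the stronger for EZH2 and the downstream peak for SUZ12.

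Inside this Polycomb-covered body stood a small pair of active-mark peaks. H3K4me3 was called 1331 to 1788 bp after the start of Mycn with a fold enrichment of 6.15, and H3K27ac 1381 to 1721 bp after it with 5.84. Their summits, at 1528 and 1513 bp, nearly coincided. The H3K4me3 peak was 458 bp wide and had a −log10 q of 29.6. Of the 16899 H3K4me3 peaks 24.4% were as narrow, and among those 4117 narrow peaks 23 (0.559%) were as significant. The H3K27ac peak was 341 bp wide with a −log10 q of 16.3, and 27 of the 35123 H3K27ac peaks as narrow (0.0769%) were as significant. Both width limits are the widths of these same peaks, so the shares describe the pair and test nothing. By fold enrichment, in contrast, the H3K4me3 peak was below the median of 7.54 for the 2039 H3K4me3 peaks that overlap H3K27me3, and the H3K27ac peak above the median of 4.07 for 3016 such H3K27ac peaks. No N-MYC or p300 peak lay within 5 kb of the gene. Reads from an introduced MYCN copy that align to the mouse gene would be counted here, and their part was not tested.

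Myc, on chromosome 15 from 61985341 to 61990361, had Polycomb and active marks at the same start. Its promoter entry being absent, its strand was taken from textbook knowledge (toward higher coordinates). EZH2 had a fold enrichment of 14.0, SUZ12 11.4, H3K27me3 8.23, H3K27ac 3.63 and H3K4me3 11.1, and neither N-MYC nor p300 had a peak. Its EZH2 value was the highest of the 10 genes and ranked 118 among 7533 genes with an EZH2 peak. The H3K27ac value, in contrast, was above only 3.1% of the 8719 genes with a peak, and the H3K4me3 value above 12.8% of 8672. The combination of these 5 lists occurred at 2.1% of all genes without regard to N-MYC and p300. The EZH2, SUZ12 and H3K4me3 peaks covered nearly the same stretch, from -1498, -1527 and -1385 bp to 3452, 3233 and 3286 bp relative to the start. Within it the EZH2 and SUZ12 summits lay 46 bp apart, at 1440 and 1394 bp after the start, while the H3K4me3 and H3K27ac summits lay at -483 and -477 bp. The H3K4me3 peak was 4672 bp wide, wider than that of 94.4% of genes with one, despite its low fold enrichment. Co-occurrence on the same chromosomes and a mixture of cells with different states cannot be told apart from these lists.

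Mycl, which encodes L-MYC, lies on chromosome 4 from 122995588 to 123002490 on the plus strand. Its values were 8.27 for EZH2, 9.65 for SUZ12, 16.6 for H3K27me3 and 12.0 for H3K4me3, with no peak for N-MYC, p300 or H3K27ac. It thus shared H3K4me3 with Myc and lacked the weak H3K27ac. EZH2, SUZ12, H3K27me3 and H3K4me3 together were at 4.21% of all genes, and among the 10 at Myc and Mycl. Its H3K4me3 peak was short, 1343 bp, from -161 to 1181 bp, whereas H3K27me3 ran from -81 to 5834 bp. Across the paralogs the order of H3K27me3 (Mycn, Mycl, Myc) was the reverse of that of EZH2 (Myc, Mycl, Mycn). Without replicates it is not known whether these differences exceed the spread between libraries.

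**Figure D3:**
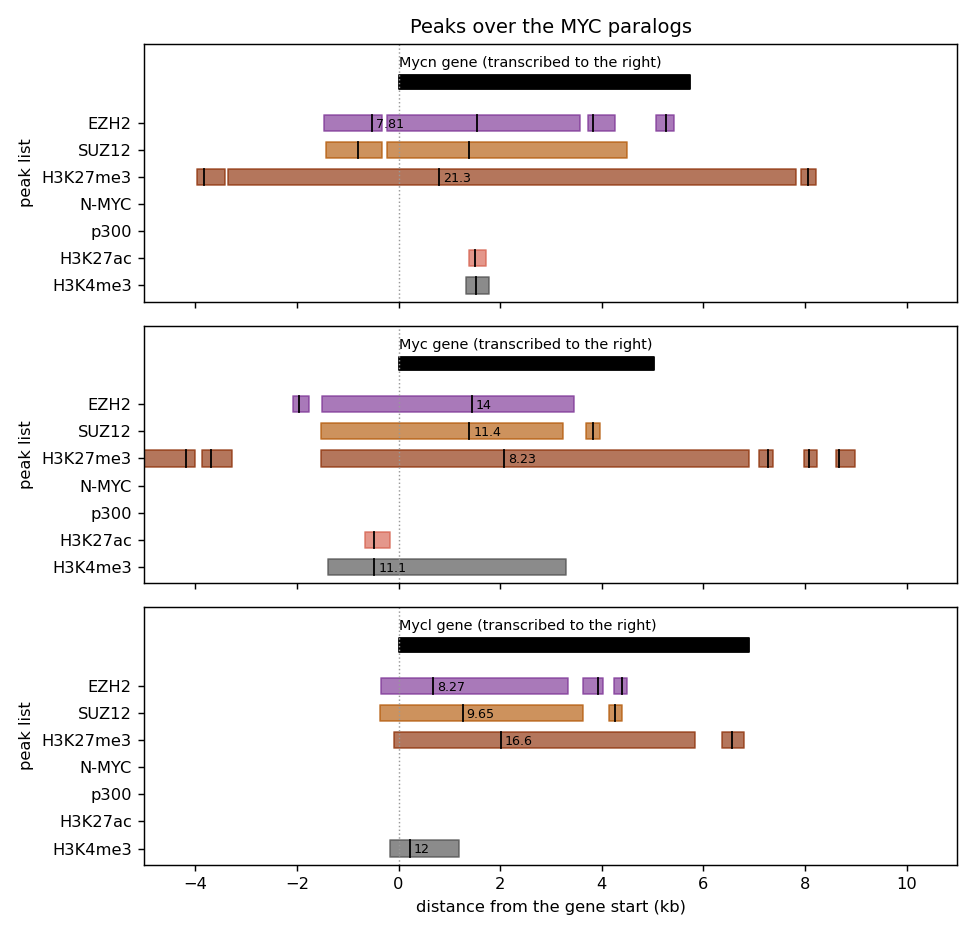
Peaks of the 7 lists (rows) over Mycn, Myc and Mycl, by distance from the gene start in kb (x axis), each gene drawn left to right. Coloured bars are peaks, black ticks summits, and numbers the fold enrichments above 7; H3K27me3 covers nearly all of each gene, and the only active-mark peaks of Mycn are the narrow pair near 1.5 kb, at 5.84 and 6.15.

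With H3K27me3 peaks joined across gaps of up to 3 kb, the domain over Mycn was 14.0 kb wide, that over Myc 15.9 kb and that over Mycl 6.87 kb, and none reached another protein-coding gene. They were wider than 86.7%, 88.7% and 72% of the 24143 joined domains. The domain over Mycl was about as long as the gene (6.9 kb), while those over Mycn and Myc extended past genes of 5.74 and 5.02 kb. The interval between the protein-coding neighbours of Mycn, Ddx1 and Cyria, spans 838.3 kb, longer than that of 94.8% of genes. It held no N-MYC or p300 peak and 5 H3K27ac peaks, covering 0.244% of it against a median of 2.57% over all genes. This cover was not unusual, as 32.1% of genes had a lower one. At Mycl the interval is 55.3 kb, with 7 H3K27ac peaks covering 6.62%, and its 3 N-MYC peaks had summits 34.3 and 10.2 kb before and 21.1 kb after the Mycl start. The strongest of these, 8.78 and 8.22, lay at the ends of the interval, close to the neighbouring genes Mfsd2a and Trit1.

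The H3K27ac peaks around Myc were concentrated on its downstream side. Over the whole interval they covered 1.93%, against the median of 2.57% over all genes. Myc lies in a gene desert in which no other protein-coding gene occurs for 1064.1 kb upstream or 1785.6 kb downstream. In T-lineage cells Myc is known to depend on distant downstream enhancers, and Pvt1, a long noncoding RNA gene, is its neighbour. Of 102 H3K27ac peaks in this interval, 2 had summits upstream of the Myc start and 100 downstream, and 89 lay over Pvt1, which extends from 52.6 to 274.9 kb after the Myc start. At the near end of Pvt1, 52.4 to 52.7 kb from Myc, were the strongest H3K27ac peak of the interval (12.3), an H3K4me3 peak of 19.7 and the only N-MYC peak of the interval (7.47). No EZH2, SUZ12 or H3K27me3 peak lay over Pvt1. Joining H3K27ac peaks across gaps of up to 12 kb gave a region of 114.8 kb, from 90.5 to 205.3 kb after the Myc start. It held 74 peaks, ranked 137 by width among 15998 such regions, and contained no H3K4me3, N-MYC or p300 peak. None of the 102 H3K27ac peaks overlapped p300; over the genome 12.9% did, and 2.57% of those away from H3K4me3. A separate pair of H3K27ac peaks lay 1300.2 and 1302.2 kb after the Myc start, with fold enrichments of 7.05 and 5.48, and 5 more between 1663.3 and 1675.8 kb.

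**Figure D4:**
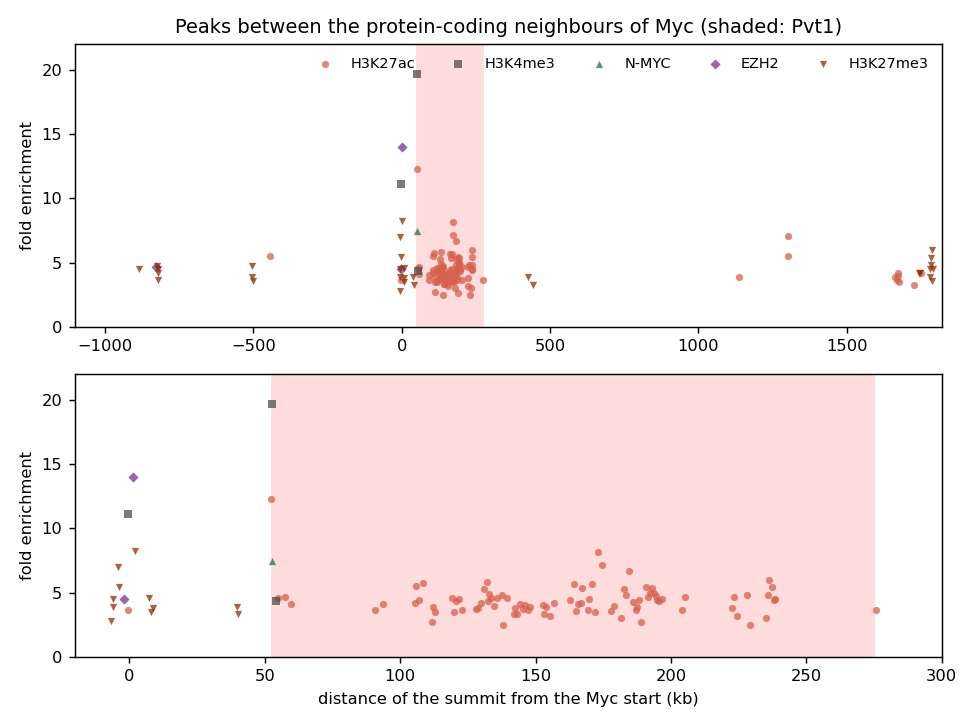
Peaks between the protein-coding neighbours of Myc, by distance of the summit from the Myc start in kb (x axis) and fold enrichment (y axis), for the whole interval (top) and from 20 kb before to 300 kb after the start (bottom); SUZ12 is not drawn and p300 had no peak. Of 102 H3K27ac peaks 89 lie over Pvt1 (shaded), whose near end carries H3K4me3 (19.7), H3K27ac (12.3) and N-MYC (7.47).

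Max, the common partner, had the highest p300 and H3K4me3 values of the 10 genes, while Mga was higher in N-MYC and Mnt in H3K27ac. It lies on chromosome 12 from 76937269 to 76962323 on the minus strand. At its start EZH2 was at 6.73, N-MYC at 11.8, p300 at 11.5, H3K27ac at 17.0 and H3K4me3 at 43.2, without SUZ12 or H3K27me3. Its p300 value ranked 42 among 6700 genes with a peak and its H3K4me3 value 286 among 8672. The N-MYC and p300 summits lay 15 bp apart, at -20 and -5 bp from the 5′ end of the gene, which lies 75 bp from the start used for the printed promoter. H3K27ac continued into the gene as a peak of 8409 bp, and H3K27ac covered 41.7% of the gene body.

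Of the genes for MAX-binding repressors, Mxd1, Mxd3, Mxd4 and Mnt all carried N-MYC, p300, H3K27ac, H3K4me3 and EZH2, and none carried SUZ12 or H3K27me3. These 5 lists without a Polycomb feature occurred at 23.4% of all genes. Mnt, the broadly expressed repressor of the group, on chromosome 11 from 74830806 to 74845725 on the plus strand, had EZH2 at 5.72, N-MYC at 10.4, p300 at 8.9, H3K27ac at 25 and H3K4me3 at 35.5. Its N-MYC peak was 2757 bp wide, the third widest at the start of the 5535 genes with one (width rank 3), and its H3K27ac peak of 13542 bp ranked 23 by width among 8719. A second N-MYC peak of 9.82 lay within the gene, with its summit 7858 bp after the start, together with p300 (9.78) and H3K4me3 (9.20) and without EZH2.

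Mxd4, on chromosome 5 from 34176580 to 34187710 on the minus strand, had EZH2 at 4.95, N-MYC at 7.18, p300 at 9.86, H3K27ac at 17.6 and H3K4me3 at 25.2. Mxd1, which is known to be induced on differentiation, on chromosome 6 from 86647044 to 86669234 on the minus strand, had 4.24, 6.54, 6.50, 13.2 and 25.7 in the same order of lists. Mxd3, linked to proliferating cells, on chromosome 13 from 55325170 to 55329900 on the minus strand, had 3.43, 5.67, 5.02, 7.26 and 20.2. Mxd3 was thus lowest of the 4 in every one of these lists. Its EZH2 peak had a −log10 q of 3.8 and is lost when a −log10 q of 5 is required. The p300 summit of Mxd3 lay 2186 bp after the start, beside a second N-MYC peak of 4.67 whose summit was at 2153 bp. In the gene bodies H3K27ac covered 37.9% of Mxd1, in 20 peaks, 35.7% of Mxd3, 26.3% of Mxd4 and 82.4% of Mnt. The median over all genes was 2.44%, and 58.5% of genes had any H3K27ac in the body. The covers were above those of 91.2% (Mxd1), 90.4% (Mxd3), 86.2% (Mxd4) and 97.7% (Mnt) of all genes.

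Mlx, on chromosome 11 from 101086707 to 101092207 on the plus strand, was the active gene without N-MYC. It had 4.47 for EZH2, 3.76 for p300, 13.7 for H3K27ac and 30.1 for H3K4me3. That combination without N-MYC was found at 5.46% of all genes. Its H3K4me3 value was above those of all 3 Mxd genes, whereas its p300 value was above only 9.72% of genes with a p300 peak. The EZH2 summit of Mlx lay 670 bp after the 5′ end of the gene. The transcript start of its printed promoter lies 583 bp after that end. The Coasy gene ends 88 bp before Mlx. No N-MYC peak was called between its protein-coding neighbours, although its promoter holds a CACGTG.

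Mga, on chromosome 2 from 119872503 to 119970129 on the plus strand, had the highest N-MYC value of the network, 15.9, which ranked 47 among 5535 genes with a peak. The other values at this start were 4.10 for EZH2, 6.26 for p300, 15.6 for H3K27ac and 16.9 for H3K4me3. The promoter table places a transcript start 24725 bp further into the gene, and this site was marked too, with N-MYC at 11.4, p300 at 7.01, H3K27ac at 19.8 and H3K4me3 at 14.4. EZH2 was called at the outer start and not at the inner. Its 97.6 kb body was otherwise nearly bare, with 2 peaks in each of the 4 active lists and H3K27ac over 3.54% of it.

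Within these promoters the EZH2 and H3K4me3 summits lay on the same side of the start as in the general pattern. The median N-MYC, p300 and H3K27ac summits lay further upstream than in that pattern. At the 6 starts with N-MYC, the EZH2 summit lay 294 (Mxd4) to 597 bp (Mnt) downstream of the start, and the H3K4me3 summit 284 to 748 bp. Over the 4096 genes with the same 5 lists and no Polycomb feature, 83.6% had the EZH2 summit and 85% the H3K4me3 summit downstream. N-MYC summits lay between -397 and -20 bp at 5 of the 6, with Mga (782 bp downstream) as the exception. Over the 4096, in contrast, 59.4% had the N-MYC summit downstream. N-MYC lay upstream of EZH2 at 5 of 6, and did so at 74.1% of the 4096. The median distance from the EZH2 summit was 78.5 bp to the H3K4me3 summit and 568.0 bp to the N-MYC summit at the 6 genes, against 104.0 and 314.0 bp over the 4096. Over the 4096 the median EZH2 summit lay 319.0 bp downstream and the median N-MYC summit 51 bp downstream. At the 6 genes these medians were 421.5 and -87 bp. The median p300 summit was at 38 bp over the 4096 and -102.5 bp at the 6, that of H3K27ac at 299.5 and -23 bp. These differences were not tested.

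**Figure D5:**
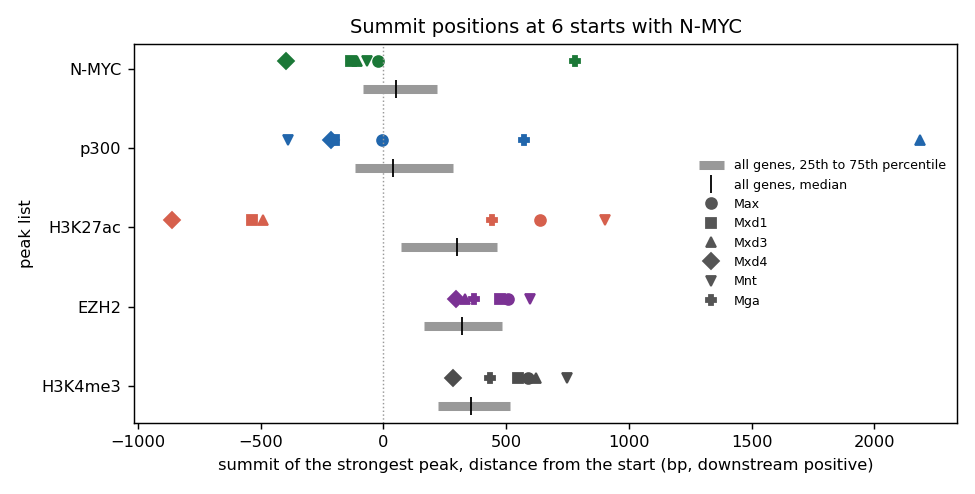
Distance of the summit of the strongest peak from the gene start in bp (x axis, downstream positive) for 5 lists (y axis) at Max, Mxd1, Mxd3, Mxd4, Mnt and Mga. Grey bars span the 25th to 75th percentile and black ticks the median of 4096 genes with the same lists; EZH2 and H3K4me3 summits lie downstream of all 6 starts and N-MYC summits upstream at 5.

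Other genes of the pathway were read from lists. Of the network relatives, Mlxip (MondoA) resembled the active group with N-MYC at 9.26 and H3K4me3 at 46.2, Mlxipl (ChREBP) carried EZH2 (3.92), SUZ12 (4.85) and H3K27me3 (22.4) without active marks, and Mxi1 carried EZH2, p300, H3K27ac and H3K4me3 with a weak H3K27me3 peak (3.94) and no N-MYC. Of 17 MYC cofactors and regulators with a placed start, 12 had N-MYC (31.6% of all genes), 12 EZH2 (43.1%), 16 H3K4me3 (49.6%), 16 H3K27ac (49.8%) and 0 SUZ12 or H3K27me3 (23.9%). Skp2 was the gene with no peak, and Kat5 and Ruvbl2, subunits of the TIP60 complex, had H3K27ac and H3K4me3 without N-MYC, p300 or EZH2. Trrap, Ep400 and Ruvbl1, of the same complex, carried all 5. All 7 of the MGA complex partners with a placed start had N-MYC, p300, H3K27ac and H3K4me3 (29.3% of all genes). EZH2 was at 6 (43.1%), Pcgf6 being the exception. Of 5 other E-box factors 1 had N-MYC, near the 31.6% of all genes: Mitf, at 4.69, beside H3K27me3 at 6.39.

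The genes most like Mycn and Myc were those at the smallest Euclidean distance over the 7 lists of log2(1 + fold enrichment at the start), with 0 for no peak. For Mycn these were Cyp1b1 (distance 0.0807), Adra2a, Fermt2, Car4 and Tmtc1 (0.177). Each had EZH2, SUZ12 and H3K27me3 and none of the active lists. For Myc they were Atrnl1 (0.371), Whrn, Slc6a20a, Kbtbd12 and Ache (0.927). Atrnl1 had 14.4 for EZH2, 9.12 for SUZ12, 7.63 for H3K27me3, 3.16 for H3K27ac and 12.3 for H3K4me3. The neighbours of Myc were farther from it than those of Mycn, but the distances are not like for like. Myc has peaks in more lists than Mycn, and its combination is rarer (2.1% against 6.89% of all genes).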

How the data were processed

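Chromatin of thymic lymphoma was profiled with 7 antibodies, 1 library and 1 deposited peak list each. Bowtie2, SAMtools and MACS2 and the build mm10 (GRCm38) are named in the submitters' processing notes; versions, filters, pooling and the use of the inputs are not given in the sources used here. The files give, per peak, a fold enrichment over background (a linear ratio, as deposited by the authors), and p-values and q-values as −log10, also as deposited. The smallest −log10 q was 2 to 2.08 over the lists, and no weaker peak is listed. A deposited score, 10 times the −log10 q, entered no result. No read depth is stated, so its effect on missing peaks is unknown.

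Gene positions came from RefSeq (GRCm38.p6), and strands from the RefSeq promoter table, which left 4392 protein-coding genes without one. Starts, bodies and the intervals between protein-coding neighbours were intersected with peaks at a minimum of 1 bp (python 3.11.15, pandas 2.3.3). Every member is named. Of other genes, those at odds with their list are named, and the 5 nearest patterns. The members and lists were chosen with earlier results of these data known. Window searches were tested on simulated data: 200 of 200 peaks planted at starts among 17492 genes were recovered. Alternatives changed the window, the thresholds, list length and the start. Those using the promoter table's starts or either gene end were chosen after seeing the data. Libraries, antibodies and animals cannot be told apart. Amino acid sequences were not used here.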

Additional observations from a re-analysis of the deposited data

How the results depend on the processing

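The 9 counts of members were recomputed under 10 alternatives each. Of the 90 values, 85 stayed within 1.5 times the reported count. When the summit had to lie in the window, SUZ12, H3K27me3 and either of them were each at 1 gene (9.72%, 15.9% and 19.8% of all genes). The summits of these wide peaks lie over 1 kb downstream at Myc and Mycl. With every list limited to its 9798 most significant peaks, EZH2 was at 6 genes (32.3% of all genes). N-MYC with EZH2 and no Polycomb feature was then at 3 (18.8%). A fold enrichment of at least 4 removed H3K27ac at Myc, p300 at Mlx and EZH2 at Mxd3, and the summit rule also removed EZH2 at Myc and p300 at Mxd3. Windows of 2 or 5 kb added the narrow H3K4me3 and H3K27ac peaks of Mycn, and 5 kb also H3K27me3 at Mga. The 5 kb window left N-MYC with EZH2 and no Polycomb feature at 5 genes (25.2% of all genes). Of 228 recomputed fold enrichments 4 changed, all at the inner start of Mga. Joining H3K27me3 peaks across 1 kb gave 12169 bp at Mycn and 10521 bp at Myc. The share of the surroundings covered by a list moved in 55 of 70 cases with fixed flanks of 50 kb, as for H3K27me3 at Myc from 0.735 to 11.9%. No paired analysis was possible because each antibody had 1 library. Depth, which could limit every missing call, is unknown.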

Other observations

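H3K27ac peaks joined across gaps of up to 12 kb gave wide regions around most of the network genes, covered by peaks only in part. The region over the start of Mxd1 was 162.8 kb wide with 85 peaks and ranked 47 by width of 15998 regions; it also takes in Asprv1, Pcbp1 and Snrnp27. The region over Max was 125.9 kb wide (rank 111), reached 125.0 kb downstream of the start across Fntb, and held 6 p300 and 3 N-MYC peaks. That over Mxd4 was 88.8 kb (rank 269) and that over Mnt 55.4 kb (rank 704). Those over Mlx and Mxd3 were 50.9 kb (rank 816) and 18.2 kb (rank 3028). In these regions the peaks themselves covered from 37.8% (Mnt) to 55.2% (Mxd4) of the width. Mga, in contrast, had 2 separate regions of 1.59 and 2.04 kb, 1 at each of its starts. Mycn had a single H3K27ac peak within its body and a group of 3, 1.93 kb wide, reaching from -239.9 to -238.0 kb. The width of such a region depends on the gap chosen and on gene density, and belongs to no single gene.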
